A study of Mus musculus with 2 samples.

Results

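Transcripts of 10 matrix genes were followed in single cells of mouse gastruloids: Adamts9, Col4a1, Col4a2, Lama1, Lama5, Lamb1, Lamc1, Fn1, Sparc and Hspg2. They were taken by gene symbol and are 10 of the 32285 genes in the count tables. All 10 were found once in both tables. Gastruloids are aggregates of embryonic stem cells that begin to lay out a body axis in culture. Here about 300 cells of the R1 mouse embryonic stem cell line, wild type or mutant for Sp5 and Sp8 (genes of zinc finger transcription factors), formed each aggregate in N2B27 medium without serum. All aggregates received 3 µM CHIR, an inhibitor of GSK3 that switches on Wnt signalling, for 12 hours from day 2, and were pooled and collected at day 2.5. The control therefore carries the CHIR treatment too, and an arm without CHIR was not analysed here. Each genotype has 1 library, from pooled aggregates. The labels do not say how many clones of the mutant were used, and the kind of mutation is not given in the sources used here.

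A basement membrane is a thin sheet of matrix under epithelia, built on a laminin network joined to a network of type IV collagen. In the early embryo the epiblast rests on such a sheet, and cells that leave through the primitive streak cross the place where it is broken down. Parietal and visceral endoderm, the extraembryonic endoderm, are textbook producers of laminin, type IV collagen and Sparc. T (Brachyury), Eomes and Foxa2 are transcription factor genes of the streak: T marks mesoderm precursors, Eomes mesendoderm, and Foxa2 the anterior streak and endoderm, visceral endoderm included.

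After removal of barcodes with fewer than 2500 unique molecular identifiers (UMIs, tags that count each molecule once), fewer than 1000 genes or more than 10% mitochondrial UMIs, 8707 cells remained in the library labelled wild type, against 10587 in the library labelled double knockout. They held 97157331 and 97644169 UMIs, with medians of 10571 and 8637 UMIs and of 3275 and 2884 genes per cell. The libraries had 27 cell barcodes in common. Transcripts of both targeted genes were higher in the library labelled double knockout. CPM counts UMIs of the gene per 1000000 UMIs of the cells. Sp5 was at 109.1 CPM in the library labelled wild type, against 478.7 CPM in the other, and Sp8 at 20.8 against 40.1 CPM. With the kind of mutation not given, these levels do not show whether the labels hold. Directions below are therefore between labelled libraries and say nothing of an absence of either gene. No test was possible with 1 library a genotype. Intervals are exact Poisson intervals of 95%, cover counting error only, and leave out variation between cultures. A gene is counted as higher when its CPM is at least 25% higher and as lower when it is at least 20% lower, which is the same fold and 0.32 on the log2 scale. Between positive and negative cells this must hold in the same direction in both libraries, which are then 2 separate readings. Counts come from the 3′ end of transcripts, so levels are compared between cells and libraries and not between genes.

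The promoters of Col4a1, Col4a2, Adamts9 and Sparc are shown first. The collagen genes share a promoter region, Adamts9 is the gene that differed between the libraries, and Sparc had the most UMIs of the 10. Windows run from 250 bases before to 50 after the transcript start, on the gene's strand, in GRCm38.p6, from RefSeq. The table used here holds windows for 7 of the 10 genes, and not for Lama1, Lamc1 or Fn1. Capitals mark GC boxes, searched as GGGCGG on both strands.
Adamts9 (chr6:92943485-92943784, minus strand): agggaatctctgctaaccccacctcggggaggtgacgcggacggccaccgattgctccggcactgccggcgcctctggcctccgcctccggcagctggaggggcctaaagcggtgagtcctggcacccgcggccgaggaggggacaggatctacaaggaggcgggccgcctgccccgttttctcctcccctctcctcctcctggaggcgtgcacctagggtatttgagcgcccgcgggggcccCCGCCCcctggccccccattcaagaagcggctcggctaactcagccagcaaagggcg
Col4a1 (chr8:11312777-11313076, minus strand): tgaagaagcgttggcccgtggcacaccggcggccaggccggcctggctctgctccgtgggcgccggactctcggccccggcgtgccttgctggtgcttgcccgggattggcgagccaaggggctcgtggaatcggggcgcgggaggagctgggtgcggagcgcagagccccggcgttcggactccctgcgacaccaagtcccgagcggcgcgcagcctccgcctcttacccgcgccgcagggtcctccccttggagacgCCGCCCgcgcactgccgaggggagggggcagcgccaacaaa
Col4a2 (chr8:11312555-11312854, plus strand): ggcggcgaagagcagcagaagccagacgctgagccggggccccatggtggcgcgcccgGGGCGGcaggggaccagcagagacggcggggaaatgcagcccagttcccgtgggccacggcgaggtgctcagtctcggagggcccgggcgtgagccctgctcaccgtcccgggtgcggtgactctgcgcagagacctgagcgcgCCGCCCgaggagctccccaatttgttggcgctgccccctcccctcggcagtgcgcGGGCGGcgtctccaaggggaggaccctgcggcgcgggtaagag
Sparc (chr11:55420031-55420330, minus strand): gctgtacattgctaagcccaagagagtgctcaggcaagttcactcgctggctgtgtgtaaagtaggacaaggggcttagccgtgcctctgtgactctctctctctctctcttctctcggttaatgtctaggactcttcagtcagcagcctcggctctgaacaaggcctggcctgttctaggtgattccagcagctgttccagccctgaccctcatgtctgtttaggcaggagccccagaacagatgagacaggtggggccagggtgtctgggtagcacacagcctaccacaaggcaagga
The Col4a1 and Col4a2 windows face away from each other and share 78 bases. A single GC box, at 11312812 to 11312817, lies in both windows, and Col4a2 has 2 more. GC boxes were found in 6 of the 7 member windows, against 35.7% of all 32851 windows in the table. Those 6 windows were 63.7% to 74% G and C, against a median of 52.7% over all windows. The shares are thus not compared at equal base content, and an excess of GC boxes beyond it was not tested. Sparc had none, while Hspg2 had 5, Lama5 had 4 and Lamb1 had 2. The T-box sequence AGGTGTGA, found in 1.28% of all windows on either strand, and the forkhead sequence TGTTTAC, found in 3.65%, were in none of the 7. The Sparc window is at the RefSeq start, which is also the start of 1 of its 9 GENCODE transcripts. Another of them starts 3103 bases upstream, so the count of 0 GC boxes does not cover that start. In the other 6 windows a GENCODE transcript starts at the same base or, for Adamts9, 42 bases away. These letters do not overlap with the GC box, and their absence says nothing about binding outside these windows.

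Between the libraries, Adamts9 was the only one of the 10 genes past that limit. Adamts9, a secreted metalloprotease that cleaves matrix proteoglycans such as versican, was at 7.80 CPM (758 UMIs, interval 7.26 to 8.38) in the library labelled wild type, against 15.5 CPM (1515 UMIs, 14.7 to 16.3) in the library labelled double knockout. That is 1.99-fold, a log2 ratio of 0.99 (0.87 to 1.12). Among the 7607 genes with a mean of at least 10 CPM, 1.42% were higher in the library labelled double knockout and 2.02% were lower. Of the 10 members, 1 was higher and 0 were lower, and 9 passed that filter. Lama1 did not. Adamts9, with a mean of 11.7 CPM, passed only through the library where it was higher. With a minimum of 1 CPM, which Adamts9 passed in either library, 3.14% of 12406 genes were higher and 4.89% lower.

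The chains of type IV collagen, the covalent network of the basement membrane, were close to equal. Col4a1 was at 32.0 CPM in the library labelled wild type, against 29.2 CPM in the library labelled double knockout, a log2 ratio of -0.13 (-0.20 to -0.06). Col4a2 was at 11.1 and 10.9 CPM (-0.03, interval -0.16 to 0.09). The interval of the Col4a1 ratio does not include 0, and the difference is inside the limit.

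The laminins assemble from 1 alpha, 1 beta and 1 gamma chain. Of the alpha chains, Lama1, the main alpha chain of the earliest embryonic basement membranes, had 275 and 273 UMIs, or 2.83 and 2.80 CPM (log2 ratio -0.02, interval -0.26 to 0.23). Lama5, the other early alpha chain, was at 40.3 and 39.7 CPM (-0.02, interval -0.08 to 0.04). Lamb1, the beta chain of these trimers, was at 56.0 and 56.4 CPM (0.01, interval -0.05 to 0.06). Each of these was level between the libraries within counting error. Lamc1, the gamma chain that most laminins contain, was at 24.3 and 22.4 CPM (-0.12, interval -0.20 to -0.03).

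The genes for proteins that bind the network were also level. Hspg2 encodes perlecan, the heparan sulfate proteoglycan that bridges the networks, and was at 17.3 and 17.4 CPM (0.01, interval -0.09 to 0.11). Fn1, fibronectin, was at 32.8 and 31.3 CPM (-0.06, interval -0.14 to 0.01). Sparc encodes a secreted glycoprotein that binds collagen and was at 66.0 and 63.9 CPM (-0.05, interval -0.10 to 0.00). The median log2 ratio of the 9 members that passed the filter was -0.03, beside -0.02 over all genes tested.

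**Figure D1:**
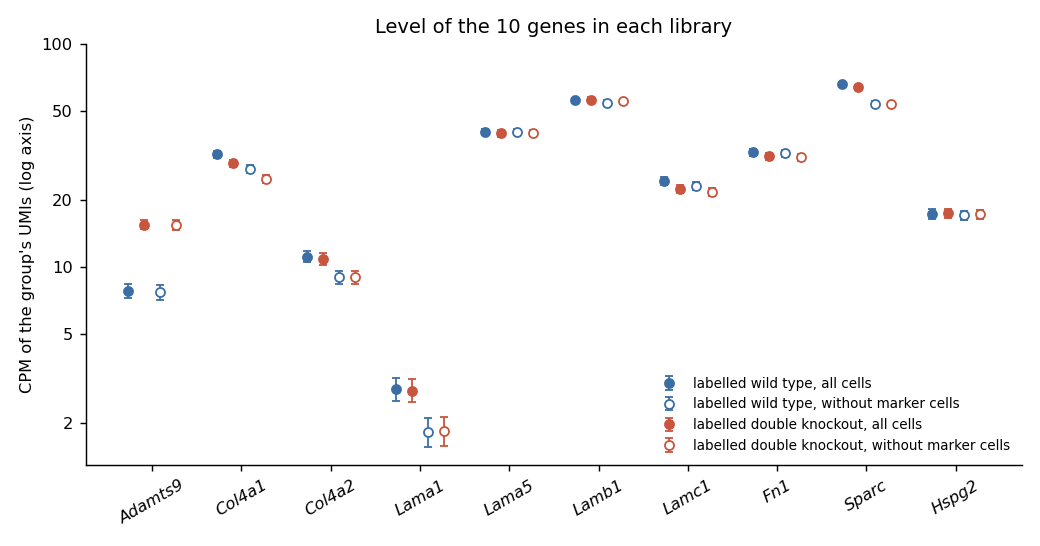
CPM of each gene (log axis) in the library labelled wild type (blue) and the library labelled double knockout (red), over all cells (filled) and without cells that had UMIs of 3 or more extraembryonic endoderm markers (open). Bars are 95% Poisson intervals, and levels of different genes are not on a common scale per length. Adamts9 shows the widest gap between the colours, at 7.80 and 15.5 CPM, and the open points lie lowest under the filled ones for Lama1, Sparc and the collagens.

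A large part of the Col4a1, Col4a2, Lama1 and Sparc transcripts came from very few cells. A list of 19 extraembryonic endoderm markers was used, none of them a member: Gata4, Gata6, Sox7, Sox17, Dab2, Cubn, Amn, Pdgfra, Foxq1, Pth1r, Srgn, Apoa1, Apoa4, Afp, Ttr, Amot, Cited1, Plat and Thbd. In the respective libraries 6436 and 8106 cells had no UMI of any. Cells with UMIs of 3 or more, called marker cells below, numbered 49 in the library labelled wild type (0.56% of cells, 0.70% of UMIs), against 42 in the library labelled double knockout (0.40% and 0.51%). They shared no barcode between the libraries, and 5 and 7 of them were marked as doublets. Gata6, Sox17 and Dab2 are on the list, so their high levels in the cells chosen by it describe the choice. Gata6, an endoderm transcription factor, was at 79.2 and 80.8 CPM there against 0.44 and 0.28 CPM in the other cells, and Sox17 at 68.9 and 88.9 against 0.36 and 0.23 CPM. Dab2, an endocytic adaptor of these tissues, was at 349 and 396 CPM against 3.91 and 3.93 CPM. Afp and Thbd had no UMI in these cells in either library. Pou5f1, a pluripotency gene that is not on the list, was at 527 and 382 CPM against 657 and 681 CPM in the other cells. Of the marker cells, 16 in each library had 6 or more markers, a limit set after the numbers of markers per cell were seen. In these Pou5f1 was lower, at 84.0 and 86.0 CPM.

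Lama1 was the most concentrated. The cells with 3 or more markers held 99 of its 275 UMIs, or 36.0% (exact binomial interval 30.3 to 42.0), where the library was labelled wild type, and 94 of 273, or 34.4% (28.8 to 40.4), in the other. Its level there was 145 and 190 CPM, against 1.82 and 1.84 CPM in the other cells. Sparc and Col4a2 were next, with shares whose intervals overlapped. For Sparc the shares were 19.0% (18.02 to 19.96) and 16.3% (15.4 to 17.3), with 1784 and 2054 CPM against 53.8 and 53.7 CPM. These shares are many times the 0.70% and 0.51% of all UMIs that the same cells held.

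For Col4a2 these cells held 19.8% (17.4 to 22.3) and 17.5% (15.3 to 19.9) of UMIs, and for Col4a1 14.7% (13.4 to 16.0) and 15.4% (14.0 to 16.7). Col4a1 was at 669 and 885 CPM in them, 24.3-fold and 35.6-fold above the other cells. The partner laminin chains were less concentrated: Lamc1 had 5.54% and 4.02% of its UMIs there and Lamb1 3.64% and 2.31%, at 8.33-fold and 8.26-fold and at 5.35-fold and 4.65-fold the level of other cells. Hspg2 had 2.14% and 1.65% there and was 3.14-fold and 3.34-fold the level of other cells. Fn1 had 1.67% and 1.34% there, at 77.7 and 82.8 CPM against 32.4 and 31.1 CPM. Its median over the marker cells of the library labelled wild type was 0, and 1 cell reached 1276 CPM. There the median was also 0 for Adamts9, Lama1, Lama5, Lamc1, Hspg2 and both collagens, so their levels came from part of the marker cells. Lama5 was at 48.4 and 26.3 CPM against 40.2 and 39.8 CPM in the other cells, 1.22-fold (0.83 to 1.69) and 0.69-fold (0.35 to 1.13). Both intervals include 1, so neither library gave it a direction. Adamts9 had 15 and 8 UMIs in these cells, at 22.0 and 16.2 CPM against 7.70 and 15.5 CPM.

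In the 16 cells of each library with 6 or more markers the levels of Lama1, Sparc and both collagens were higher still. Sparc was at 6211 and 6060 CPM, Col4a1 at 2347 and 2600 CPM, Col4a2 at 1081 and 1100 CPM and Lama1 at 514 and 578 CPM. These 16 cells alone held 35.6% and 34.4% of all Lama1 UMIs, so nearly all of the share given above. They held 18.5% and 15.8% of the Sparc UMIs and 14.4% and 14.8% of those of Col4a1. Hspg2, at 142 and 166 CPM, was also higher than at 3 or more markers. Fn1 was not: with 3 and 5 UMIs it was at 15.7 and 30.7 CPM in the 16 cells, against 32.8 and 31.3 CPM in all others, so its higher level at 3 or more markers came from cells with 3 to 5 of them. Lama5 had 4 and 3 UMIs in the 16 cells.

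**Figure D2:**
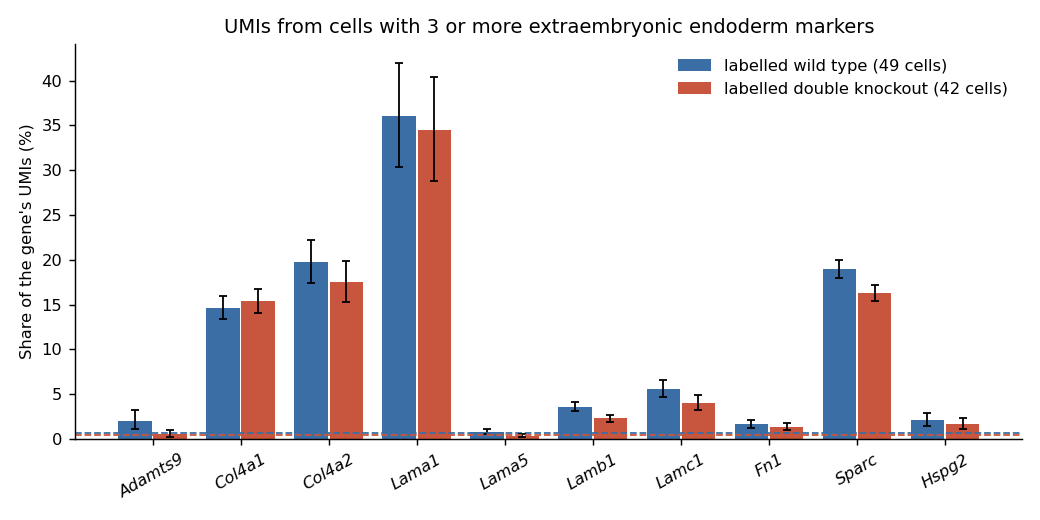
Share of each gene's UMIs (percent) that came from the 49 and 42 cells with 3 or more extraembryonic endoderm markers, for the library labelled wild type (blue) and the library labelled double knockout (red), with exact binomial 95% intervals. Dashed lines give the share of all UMIs in those cells, 0.70% and 0.51%; Lama1 stands highest at 36.0% and 34.4%, followed by Col4a2, Sparc and Col4a1.

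The correlation between the collagen genes went with these cells. Across cells thinned to 2500 UMIs each, Pearson's r between Col4a1 and Col4a2 was 0.50 in the library labelled wild type, against 0.41 in the library labelled double knockout. Without the cells with 3 or more markers it was 0.034 and 0.0014. All 45 pairs of the 10 genes then lay between -0.02 and 0.04 and between -0.03 and 0.04. Counts per cell are sparse at this depth, so these values describe the counts and are no measure of shared control.

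Positive cells were those with at least 1 UMI of T, Eomes or Foxa2. T-positive cells numbered 2267 (26.0%) in the library labelled wild type, against 3100 (29.3%) in the library labelled double knockout, and at 2500 UMIs per cell 7.76% and 9.85%. Eomes-positive cells numbered 3780 (43.4%) and 6547 (61.8%), and 17.0% and 31.4% at that depth. Foxa2-positive cells numbered 151 (1.73%) and 373 (3.52%), and 0.44% and 1.27%. Of the Foxa2-positive cells, 64.9% and 90.6% were Eomes-positive and 49.7% and 56.3% T-positive, so the 3 splits share cells. Positive cells were deeper: median UMIs were 11773 against 10129 and 9771 against 8251 for T. For comparison, among 23 and 4 cells with 3 or more neural markers, with median UMIs of 8582 and 8044.5, T was found in 1 and 0, Eomes in 3 and 1, and Foxa2 in 1 and 0, too few cells to set a level of free RNA. The exact interval for 0 of 4 cells reaches 60.2%.

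T-positive cells had more Adamts9 in both libraries. Its level was 11.6 CPM in T-positive and 6.18 CPM in T-negative cells of the library labelled wild type, and 22.8 and 11.9 CPM in the library labelled double knockout. The log2 ratios were 0.91 (0.70 to 1.12) and 0.94 (0.79 to 1.08). It was the 1 of 10 members that was higher in both libraries, beside 0.631% of all 7606 genes tested. Adamts9 reached a mean of 10 CPM only with the T-positive cells counted. With a minimum of 1 CPM, which it passed in either group, 120 of 12405 genes were higher. Fn1 was at 37.7 against 30.7 CPM and at 33.9 against 30.1 CPM, log2 ratios of 0.30 (0.19 to 0.40) and 0.17 (0.07 to 0.28), short of the limit. Fn1 passed it, at 0.59 and 0.33, when positive cells needed at least 2 T UMIs. Lama5 (0.19 and 0.15) was likewise above 0 and short of the limit.

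Lama1, Sparc and Col4a2 were lower in T-positive cells, 3 of 10 members. Lama1 was under 10 CPM, and of the 9 members that passed it 2 were lower, beside 0.578% of genes. Col4a2 reached 10 CPM only with the T-negative cells counted. With a minimum of 1 CPM, which all 10 passed, 235 of 12405 genes were lower. Sparc was at 49.0 against 73.2 CPM and at 48.6 against 71.5 CPM, with log2 ratios of -0.58 (-0.67 to -0.50) and -0.56 (-0.64 to -0.48). Lama1 had log2 ratios of -0.996 and -1.003, and Col4a2 of -0.45 and -0.43. None of the 3 was past the limit once the cells with 3 or more extraembryonic endoderm markers were left out, where 0.513% of all genes were lower. Sparc was then at -0.23 (-0.32 to -0.14) and -0.23 (-0.31 to -0.14), Lama1 at -0.21 and -0.19, and Col4a2 at -0.05 and -0.12. Adamts9 kept 0.91 and 0.93, the 1 member higher beside 0.578% of genes.

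Eomes-positive cells had more Adamts9 and more Lama5. Adamts9 was at 11.04 CPM in Eomes-positive and 4.74 CPM in Eomes-negative cells of the library labelled wild type, and at 19.2 and 8.16 CPM in the library labelled double knockout. Its log2 ratios were 1.22 (0.99 to 1.45) and 1.23 (1.04 to 1.43). Lama5 was at 45.1 against 35.8 CPM and 42.9 against 33.4 CPM, with log2 ratios of 0.33 (0.24 to 0.43) and 0.36 (0.26 to 0.46), just past the limit of 0.32. These were 2 of 10 members, beside 1.1% of all 7606 genes. Both remained past the limit without the marker cells (Lama5 0.32 and 0.36), beside 1.1% of genes. Adamts9 reached a mean of 10 CPM only with the Eomes-positive cells counted. With a minimum of 1 CPM, which it passed in either group, 201 of 12405 genes were higher. Lama5 fell short of the limit in at least 1 library with a minimum of 5000 UMIs (0.316 and 0.331) and after thinning (0.198 and 0.287). It also did so in cells over 0.8 times the median share of UMIs from chromosomes 6 and 11 (0.392 and 0.318).

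Sparc, Col4a2 and Lama1 were lower in Eomes-positive cells, 3 of 10. Lama1 was under 10 CPM, and of the 9 members that passed it 2 were lower, beside 1.13% of genes. Col4a2 reached 10 CPM only with the Eomes-negative cells counted. With a minimum of 1 CPM, which all 10 passed, 359 of 12405 genes were lower. Of the 3 members, Sparc was still lower without the marker cells, at 46.9 against 60.4 CPM and 49.4 against 62.5 CPM. Its log2 ratio was -0.74 and -0.69 in all cells and -0.36 (-0.44 to -0.28) and -0.34 (-0.42 to -0.26) without them, where 1.09% of genes were lower. Col4a2 moved from -0.60 and -0.62 to -0.27 and -0.25. Lama1 moved from -1.12 and -0.80 to -0.61 (library labelled wild type) and 0.13 (library labelled double knockout), with 67 and 123 UMIs in the positive cells. Col4a1 was at -0.41 (-0.51 to -0.31) and -0.26 (-0.37 to -0.15) in all cells, short of the limit in the library labelled double knockout. Without the marker cells it was at -0.19 (-0.30 to -0.08) and 0.11 (-0.01 to 0.24), so the libraries parted in direction, and it parted from Col4a2 in the library labelled double knockout. Lamb1, Lamc1, Fn1 and Hspg2 had log2 ratios between -0.10 and 0.07 over all cells.

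Foxa2-positive cells stood far apart over all cells, and most of that went with the marker cells. Over all cells 7 of 10 members, all but Lama5, Lamb1 and Hspg2, were higher in both libraries, with Lama1 counted although under 10 CPM. Of the 9 members that passed 10 CPM, 6 were higher, beside 2.01% of all 7607 genes, and 0 were lower, beside 1.5%. Col4a2, 1 of the 6, reached 10 CPM only with the marker cells counted, and was at 9.01 and 9.03 CPM without them. With a minimum of 1 CPM, which Lama1 also passed, 638 of 12405 genes were higher and 484 lower. Lama1 was at 44.3 against 2.00 CPM in the library labelled wild type; the other library had 10.8 against 2.46 CPM. Sparc was at 482 against 57.6 CPM and at 141 against 60.6 CPM, and Col4a1 at 209 against 28.4 CPM and at 65.9 against 27.7 CPM. The 19 extraembryonic endoderm markers summed to 402 and 170 CPM in Foxa2-positive cells and to 32.3 and 34.3 CPM in Foxa2-negative cells. Of the 151 and 373 Foxa2-positive cells, 12 and 11 had 3 or more of these markers.

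Without those cells, 2 members were higher in Foxa2-positive cells, Adamts9 and Fn1, beside 1.26% of genes. Adamts9 was at 25.6 against 7.37 CPM and 57.3 against 13.8 CPM, with log2 ratios of 1.81 (1.33 to 2.23, 45 UMIs in positive cells) and 2.06 (1.84 to 2.26, 221 UMIs). Fn1 was at 44.4 against 32.2 CPM and 43.6 against 30.6 CPM, with log2 ratios of 0.47 (0.12 to 0.79) and 0.52 (0.28 to 0.74). Sparc changed sides: it was lower, at 38.7 against 54.1 CPM and 42.5 against 54.2 CPM, with log2 ratios of -0.47 (-0.85 to -0.14) and -0.35 (-0.58 to -0.13). It was the 1 member lower, beside 1.66% of genes. Col4a1 was at -0.09 and -0.10, and Lama1 had 3 and 8 UMIs left in the positive cells, too few for a direction.

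**Figure D3:**
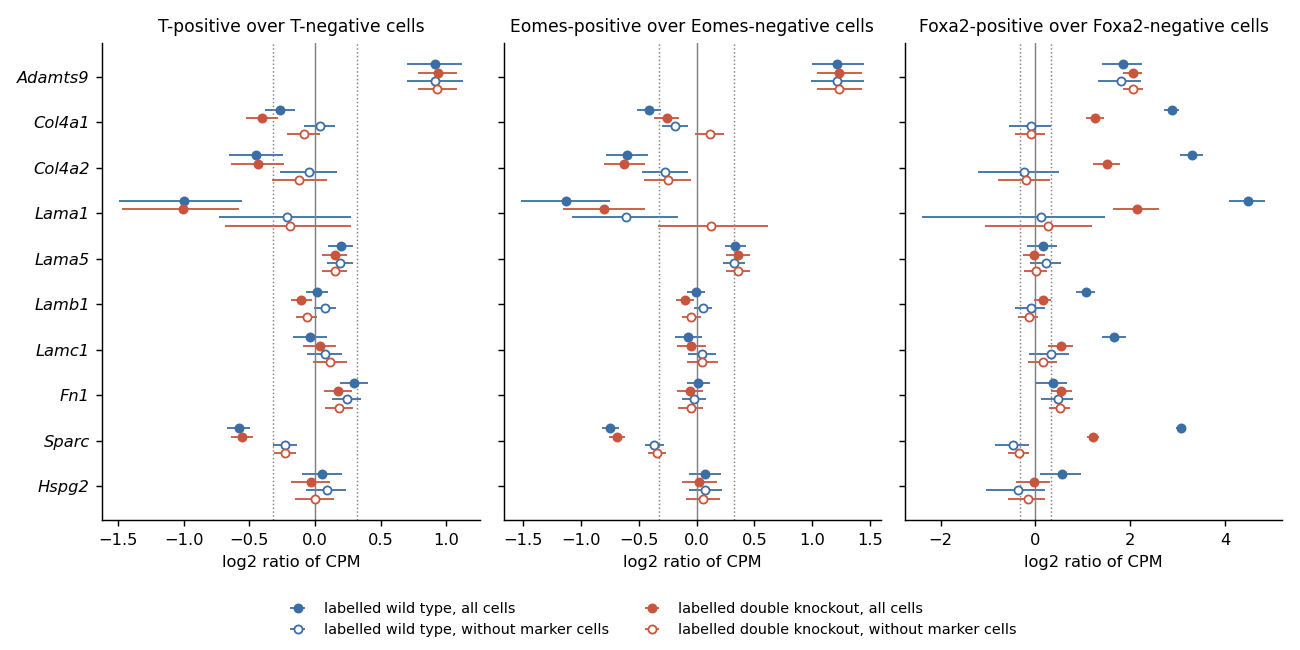
Log2 ratio of CPM, positive over negative cells, for each gene and split by T, Eomes and Foxa2 (panels have their own x range), in the library labelled wild type (blue) and the library labelled double knockout (red), over all cells (filled) and without cells with 3 or more extraembryonic endoderm markers (open). Bars are 95% intervals of counting error and dotted lines mark the limit of 0.32 on the log2 scale; Adamts9 lies to the right in all 3 panels with or without those cells, and Lama1, Sparc and the collagens move to near 0 or below it in the Foxa2 panel when they are left out.

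Adamts9 was at its highest in cells that had Eomes and Foxa2, with or without T, apart from 77.8 CPM from 5 UMIs in 7 cells with T and Foxa2 alone in the library labelled double knockout. Without the marker cells, in the library labelled wild type it was at 4.58 CPM in cells negative for all 3, 5.42 CPM with T alone, 7.99 CPM with Eomes alone, 13.4 CPM with T and Eomes, and 36.7 CPM (24.7 to 52.4, 58 cells) with all 3. In the library labelled double knockout the same classes were at 7.09, 12.4, 14.2, 20.8 and 68.8 CPM (58.4 to 80.5, 199 cells). Cells with Eomes and Foxa2 but no T were at 32.0 CPM (17.9 to 52.7, 37 cells) and 43.7 CPM (33.3 to 56.4, 133 cells). Where the label was wild type that interval overlapped the one for all 3 genes, and in the other library it lay below it. In the library labelled wild type 15 cells with T and Foxa2 alone had 0 UMIs. The intervals of triple negative and T-only cells overlapped in the library labelled wild type and not in the other. Those of T-only and Eomes-only cells overlapped in both. Among Foxa2-negative cells, Eomes-positive over Eomes-negative gave log2 ratios of 0.80 (0.51 to 1.09) and 1.00 (0.76 to 1.253) where T was absent, and 1.29 (0.86 to 1.78) and 0.74 (0.39 to 1.13) where it was present. T-positive over T-negative gave 0.75 (0.48 to 1.02) and 0.55 (0.37 to 0.73) among Eomes-positive, Foxa2-negative cells. Among Eomes-negative, Foxa2-negative cells it gave 0.25 (-0.24 to 0.70) in the library labelled wild type, short of the limit and with an interval across 0, beside 0.81 (0.39 to 1.21). The Eomes split was thus seen with and without T in both libraries, while the T split without Eomes passed the limit only in the library labelled double knockout. Among T-positive and Eomes-positive cells, those with Foxa2 over those without gave 1.47 (0.86 to 2.00) and 1.73 (1.46 to 1.99).

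The library difference of Adamts9 was also taken inside the classes. In triple negative cells, marker cells included, it was 0.63 (0.33 to 0.93) on the log2 scale, and in barcodes with 1 to 100 UMIs, read as free RNA, it was 0.63 (-0.09 to 1.36). It was 0.81 (0.58 to 1.05) with Eomes alone, 1.17 (0.63 to 1.74) with T alone and 0.61 (0.39 to 0.84) with T and Eomes. These are the 4 classes with at least 100 cells in each library. In cells with all 3 genes it was 0.87 (0.34 to 1.49), from 60 and 203 cells. Giving each class the same weight in both libraries brought the log2 ratio from 0.99 to 0.74. Eomes itself was at 91.2 and 185.6 CPM, T at 38.8 and 50.7 CPM and Foxa2 at 2.28 and 6.81 CPM, and the part of their higher levels in the difference within classes was not tested.

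At a fixed depth of 2500 UMIs per cell, Adamts9 was higher in cells with more Eomes UMIs in the library labelled double knockout. It was at 11.01 CPM (9.53 to 12.6) in cells with 0, 15.8 CPM (12.8 to 19.3) with 1, 32.5 CPM (24.5 to 42.4) with 2 and 31.4 CPM (19.2 to 48.5) with 3 or more. In the library labelled wild type it was at 6.29 CPM (5.19 to 7.56) with 0 and 14.1 CPM (10.2 to 19.1) with 1. The cells with 2 and with 3 or more held 5 and 2 Adamts9 UMIs there, too few for an order. The log2 ratio between the libraries was 0.80 (0.47 to 1.15) at 0 Eomes UMIs, 0.15 (-0.38 to 0.72) at 1, 1.79 (0.61 to 3.60) at 2 and 0.80 (-0.96 to 4.22) at 3 or more. It followed no order over these levels.

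The other genes had their own patterns over the classes. Of the 4 large classes, triple negative cells had the least Lama5, at 34.7 and 32.2 CPM, and it was at 44.0 and 43.0 CPM with Eomes alone and at 46.1 and 43.6 CPM with T and Eomes. Fn1 was higher with T among Eomes-positive, Foxa2-negative cells, where it was at 37.0 CPM with T and 28.0 CPM without in the library labelled wild type, beside 32.6 and 28.3 CPM in the library labelled double knockout. Those log2 ratios were 0.40 (0.25 to 0.55) and 0.21 (0.07 to 0.34), while among Eomes-negative, Foxa2-negative cells they were 0.07 and 0.02 with intervals across 0. Of the 4 large classes, triple negative cells had the most Sparc, at 61.9 and 64.8 CPM, and cells with Eomes alone were at 48.3 and 51.0 CPM. Lamb1, Lamc1 and Hspg2 had intervals across 0 in both libraries for each of these comparisons.

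**Figure D4:**
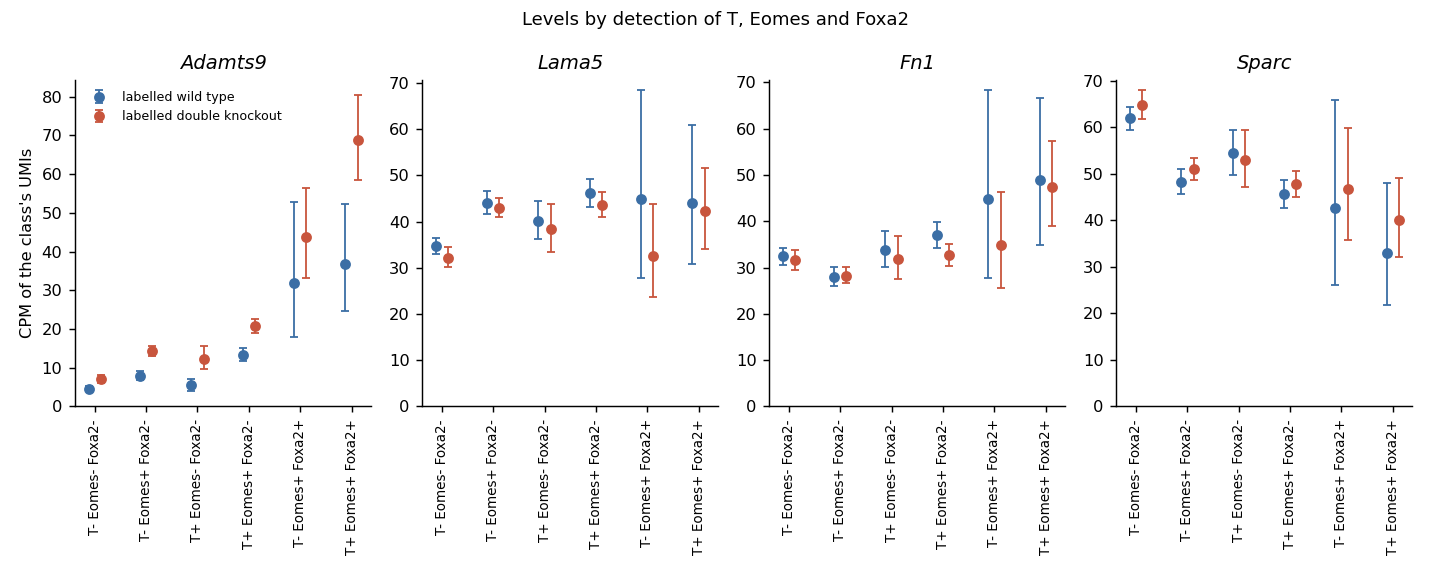
CPM of Adamts9, Lama5, Fn1 and Sparc (each panel with its own y axis from 0) in 6 classes of cells by detection of T, Eomes and Foxa2, without cells with 3 or more extraembryonic endoderm markers, in the library labelled wild type (blue) and the library labelled double knockout (red), with 95% Poisson intervals. Adamts9 goes from 4.58 and 7.09 CPM in triple negative cells to 36.7 and 68.8 CPM in cells with all 3 genes, while Sparc is highest in triple negative cells of the 6 classes drawn.

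Genes with the class pattern most like that of Adamts9 were sought among the 7606 genes at a mean of at least 10 CPM, by Pearson's r of log2 (CPM + 1) over 4 classes in 2 libraries, 8 points that share depth and library. They were Khdrbs1 (0.99), Spata24, Gsc and Abcg2 (0.98 each) and Eif1a (0.98). Of these Gsc, a homeobox gene of the anterior streak, came closest to it in size. The log2 ratio of Gsc between the libraries was 1.18, beside 0.99 for Adamts9. Its ratios by Eomes were 1.59 and 1.47, beside 1.22 and 1.23 for Adamts9. By Foxa2 over all cells they were 1.24 and 1.58, beside 1.85 and 2.05 for Adamts9. The other 4 differed between the libraries by 0.06 to 0.35 only. None of the other 9 members had an r above the 0.61 of Lama5, and Col4a1 had -0.72.

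Chromosome share was followed for Adamts9 on chromosome 6 and Sparc on chromosome 11, because cells with a low share of UMIs from these chromosomes occur in both libraries. Copy number was not measured. Cells with at least 4000 UMIs were split at 0.8 times the median share of the chromosome, taken without the members. Medians below 0 over the chromosome's genes follow from this choice of cells. Adamts9 did not go down with its chromosome: it was at 8.70 CPM in 1795 low cells against 7.67 CPM in the other cells of the library labelled wild type, and at 17.8 against 15.2 CPM in the library labelled double knockout. Its log2 ratios were 0.18 (-0.08 to 0.43) and 0.22 (0.03 to 0.40), where the 376 tested genes of chromosome 6 had medians of -0.49 and -0.54. Foxa2-positive cells made up 3.23% and 6.10% of the low cells and 1.40% and 3.09% of the others, and their part in this was not tested. Sparc was at 88.6 against 62.2 CPM and at 123 against 61.3 CPM in cells low for chromosome 11. Without the cells with 3 or more markers, of which 14 and 7 were low for chromosome 11, it was at 41.8 against 56.2 CPM and at 41.0 against 54.8 CPM. Its log2 ratios were then -0.43 (-0.55 to -0.30) and -0.42 (-0.63 to -0.21), near the medians of -0.50 and -0.54 of the chromosome's 663 tested genes.

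**Figure D5:**
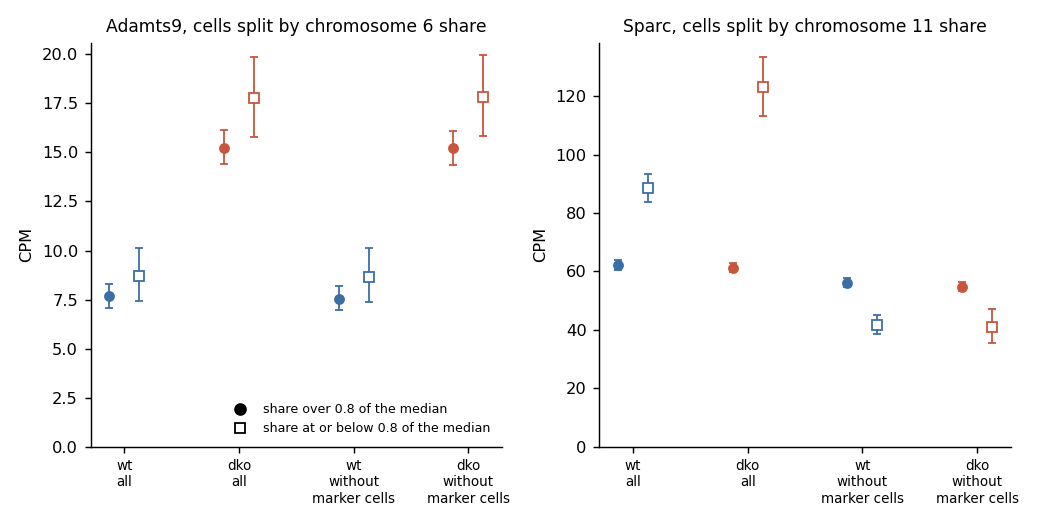
CPM of Adamts9 (left) and Sparc (right) in cells with a share of UMIs from the gene's chromosome over 0.8 times the median (filled circles) and at or below it (open squares), in the library labelled wild type (wt, blue) and the library labelled double knockout (dko, red), over all cells and without cells with 3 or more extraembryonic endoderm markers, with 95% Poisson intervals. The Sparc squares lie above the circles over all cells, at 88.6 and 123 CPM, and below them without the marker cells, at 41.8 and 41.0 CPM.

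Few of the other pathway genes with at least 10 CPM passed the limit between the libraries, where 1.42% of all genes tested were higher and 2.02% lower. Of 30 further basement membrane genes 4 reached 10 CPM (Nid2, Col18a1, Fbln1 and Frem2) and 0 were higher or lower, with a median log2 ratio of -0.07. Of 14 genes of collagen folding and crosslinking 10 passed and 0 were higher or lower, with a median of 0.09. Of 21 matrix receptors 9 passed. Itga1, an integrin chain that binds collagen, was higher, at 8.58 and 12.1 CPM (log2 ratio 0.50, interval 0.37 to 0.63). It reached a mean of 10 CPM only through the library where it was higher. Ddr1, a receptor kinase for collagen, was lower, at 28.7 and 21.5 CPM (-0.42, interval -0.50 to -0.34). Of 29 further proteases, inhibitors and a substrate 4 passed, and Vcan, versican, the classic substrate of Adamts9, was lower, at 53.5 and 37.9 CPM (-0.50, interval -0.56 to -0.44). The median over all genes tested was -0.02.

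A lower minimum took in more genes. With a minimum of 1 CPM, 4 of 15 further basement membrane genes were lower and 0 higher, beside 4.89% lower and 3.14% higher of all 12406 genes. They were Frem1 (1.76 and 0.96 CPM, log2 ratio -0.87, interval -1.25 to -0.50), Ntn1 (8.13 and 5.12 CPM, -0.67), Fras1 (11.4 and 8.46 CPM, -0.43) and Col4a5 (3.36 and 2.50 CPM, -0.42). Frem1 and Fras1 encode extracellular proteins of the basement membrane, Ntn1 a laminin-related guidance protein, and Col4a5 another type IV collagen chain. Of 19 proteases and inhibitors 3 were lower and 0 higher, of 16 receptors 2 were higher and 2 lower, and of 14 collagen assembly genes 1 was higher. The 4 genes are named after their values were seen.

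Vcan was also lower in all 3 splits, where Adamts9 was higher. Its log2 ratios were -0.43 and -0.47 for T, -0.61 and -0.52 for Eomes, and -0.64 and -0.90 for Foxa2 (-0.51 and -0.89 without the marker cells). Among receptors, Sdc4, a heparan sulfate proteoglycan, was lower in T-positive (-0.45 and -0.46) and Eomes-positive cells (-0.47 and -0.56). Without the marker cells Sdc4 was also lower in Foxa2-positive cells, at -0.67 (-1.06 to -0.32) and -1.05 (-1.38 to -0.75). Ddr1 was lower in Eomes-positive (-0.45 and -0.40) and Foxa2-positive cells (-0.65 and -0.52), and Itga1 was higher in Eomes-positive cells (0.44 and 0.61). Fbln1, a basement membrane glycoprotein, was lower in Eomes-positive cells (-0.34 and -0.42). Serpinh1, the chaperone of collagen folding, was higher in Foxa2-positive cells (1.14 and 0.51). Without the marker cells it was at -0.04 (-0.30 to 0.21) and 0.17 (0.02 to 0.32), short of the limit in both libraries.

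Free RNA, read in barcodes with 1 to 100 UMIs, held every member. Adamts9 was at 6.26 CPM (33 UMIs, interval 4.31 to 8.80) and 9.71 CPM (36 UMIs, 6.80 to 13.4) there. Sparc was at 41.8 and 55.0 CPM and Col4a1 at 37.0 and 44.2 CPM. The levels of Adamts9 in cells with T and Eomes, with Eomes and Foxa2 and with all 3 genes were above this in both libraries, with intervals that did not overlap. Those in triple negative cells, in cells with T alone and in cells with Eomes alone had intervals that overlapped it in both libraries. The share of a cell's UMIs that is free RNA was not measured, so these levels are neither read as background nor set apart from it, and the part of free RNA in their library ratios was not tested. In GENCODE M21 on GRCm38 the members are protein-coding genes. Lama1 lies on chromosome 17 (67697259 to 67822647), Lama5 on chromosome 2 (180176373 to 180225859), Lamb1 on chromosome 12 (31265234 to 31329644) and Lamc1 on chromosome 1 (153218922 to 153332786). Fn1 lies on chromosome 1 (71585520 to 71653200), Sparc on chromosome 11 (55394500 to 55423183) and Hspg2 on chromosome 4 (137468769 to 137570630). Several members overlap other annotated genes, and whether counting used strand is not given in the sources used here. Adamts9 (ENSMUSG00000030022; chromosome 6, 92772699 to 92943492) has A730049H05Rik, Gm15737 and 9530026P05Rik on the opposite strand, which had 38, 1 and 7 UMIs in the library labelled wild type, against 69, 2 and 15 in the other. Col4a1 and Col4a2 (chromosome 8, 11198423 to 11312826 and 11312805 to 11449287) overlap by 22 bases on opposite strands. Apol7d, on the strand opposite to Fn1, had 57 UMIs in each library, against 3182 and 3059 of Fn1.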

How the data were processed

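Single-cell 3′ libraries from 2 pools of gastruloids, 1 per genotype, were read as the UMI counts per gene and barcode that the authors deposited, not normalized. The submitters' processing notes name STARsolo, STAR 2.7.9a, Seurat 5.1.0 and mm10, while the labels' protocol names Cell Ranger 8.0.1. Which of them made these counts, and whether strand was used, is not given in the sources used here. Depth was 104083993 and 103187025 UMIs over all barcodes, 97157331 and 97644169 in cells. Cells needed 2500 UMIs, 1000 genes and at most 10% mitochondrial UMIs. The labels give 9238 and 11190 captured cells and no threshold, and here 8772 and 10613 barcodes reached the UMI minimum. Of these, 1 and 0 were removed for genes and 64 and 26 for mitochondrial share. Doublets were kept, and 606 and 897 cells with the highest Scrublet-type scores were marked for an alternative.

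UMIs were summed per library and cell group and scaled to CPM, with a pseudocount of 0.5 UMI in log2 ratios. Intervals of sums are exact Poisson, those of ratios the conditional interval of 2 Poisson sums, and those of shares Clopper-Pearson, all at 95% and for counting error only. With 1 library per genotype no test was run. The fold limit, intervals and thinning were tried on simulated independent Poisson counts, with the splits taken from the library labelled wild type only. The rule that both libraries must go the same way was not simulated. No minimum recovery was required for the Foxa2 split. The simulation therefore gives no error rate for the calls by T, Eomes or Foxa2. The counts over all genes used those with a mean of at least 10 CPM. Scripts used Python 3.11.15, numpy 2.4.6, scipy 1.17.1 and scikit-learn 1.9.0. Scaling alternatives used factors from edgeR 4.0.16 (TMM) and DESeq2 1.42.0 in R 4.3.3. Gene positions are from GENCODE M21 and promoters from RefSeq.

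The members and gene lists were chosen with earlier results of these data known. Named genes are the members, T, Eomes, Foxa2, Sp5 and Sp8, the 5 genes most like Adamts9, and, in each related list, up to 3 genes with the largest ratio between the libraries and up to 3 in each split. Gata6, Sox17, Dab2 and Pou5f1 are named to describe the marker cells and overlapping genes by position. Markers were also listed for streak, neural, naive pluripotent and stress states. Other alternatives were a minimum of 5000 UMIs, a mitochondrial limit of 5%, thinning to 2500 UMIs, and cells with 2 or more UMIs as positive. Further ones were cells with at least 4000 UMIs and over 0.8 times the median share of chromosomes 6 and 11, equal class weights and lower filters. Cells with 3 or more extraembryonic endoderm markers were also left out as an alternative. Exclusion at 6 or more markers was chosen after seeing the data.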

Additional observations from a re-analysis of the deposited data

How the results depend on the processing

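The counts of members between the libraries, 1 higher and 0 lower, were the same under each alternative run. No paired analysis was possible because each group holds 1 library and no result comes from a test. Splits depended most on the cells with extraembryonic endoderm markers. The count of members lower in T-positive cells went from 3 to 0 without cells with 3 or more or with 6 or more markers and to 1 after thinning, and the count higher went from 1 to 2 with at least 2 T UMIs required. For Eomes, the count lower went from 3 to 1 without cells with 3 or more or 6 or more markers. The count higher went from 2 to 1 at 5000 UMIs, after thinning, or in cells over 0.8 times the median share of chromosomes 6 and 11. For Foxa2, the count higher went from 7 to 2 without either set of marker cells, and the count lower from 0 to 1 without cells with 3 or more markers.

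Of the log2 ratios of at least 0.32 in size, the following turned. Lama1 by Eomes in the library labelled double knockout was 0.13 without cells with 3 or more markers and 0.13 at 6 or more. It was 0.034 in cells over 0.8 times the median share of chromosomes 6 and 11. By Foxa2 in the library labelled wild type, Hspg2 was -0.23 at the 5% mitochondrial limit. Without cells with 3 or more markers Col4a1 was -0.089, Col4a2 -0.24, Lamb1 -0.10, Sparc -0.47 and Hspg2 -0.36 there, and without cells with 6 or more -0.088, -0.17, -0.10, -0.47 and -0.39. In the library labelled double knockout Col4a1 was -0.10, Col4a2 -0.20 and Sparc -0.35 without cells with 3 or more markers, and -0.064, -0.088 and -0.28 without cells with 6 or more. Of the 33 ratios under 0.32, 21 changed sign in at least 1 alternative. The largest were those of Col4a1, by T in the library labelled wild type (from -0.26 to 0.035 without cells with 3 or more markers and 0.028 at 6 or more) and by Eomes in the library labelled double knockout (from -0.26 to 0.11 and 0.10). Lamb1 by Foxa2 in the latter went from 0.16 to -0.14 in both settings. The marker settings leave out cells by markers that are not members, and the summed levels of the genes named here were higher in those cells. The cause of the sign changes was not tested. TMM factors moved log2 ratios by 0.03 between the libraries and by -0.07 for Foxa2 in the library labelled wild type. Depth limits Lama1, and all members in Foxa2-positive cells of the library labelled wild type.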

Other observations

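The marker cells also held transcripts of a few related genes that reached less than 10 CPM. Of 22 further basement membrane genes with at least 20 UMIs in each library, 1 had 5% or more of its UMIs in them in both libraries, beside 97 of all 14980 genes with as many UMIs (0.648%, the markers included). It was Tinagl1, a matricellular glycoprotein of basement membranes, where they held 26 of 45 (57.8%) in the library labelled wild type, against 14 of 36 (38.9%) in the library labelled double knockout. In the other lists it was 1 of 14 collagen assembly genes (P4ha1, a prolyl hydroxylase, 6.58% and 7.05%), 1 of 18 receptors (Itga5, the integrin alpha chain for fibronectin, 9.01% and 5.15%) and 1 of 25 proteases and inhibitors (Htra1, a secreted serine protease, 5.81% and 5.99%). These 4 genes were chosen after their values were seen.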
